A study of Mus musculus with 8 samples.

Results

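Olfactory receptor (Olfr) and vomeronasal receptor (Vmn1r and Vmn2r) genes lie in large tandem clusters, and the replication initiation sites (ISs) in and around them were examined here. An IS was included when its midpoint lay on an autosome within 50 kb of a gene whose symbol starts with Olfr, Vmn1r or Vmn2r in the GENCODE M1 annotation of mm9, pseudogenes included. The rule used position only and no read density. It gave 626 of the 39116 ISs in the table of Rif1KO and WT cells and 2600 of the 129937 ISs in the table of Rif1KO_shMcm6 and Rif1KO_shLacZ cells. Chromosomes 10 and 16 are described apart, which left 533 and 2467 ISs on the other 17 autosomes. There, 17 ISs of the first table lay 45 to 50 kb from a receptor gene, with a median density of 4.54 log2 RPM in WT and 4.41 in Rif1KO, and 19 lay 50 to 55 kb away, with 4.45 and 4.44.

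Short nascent strand sequencing (SNS-seq), which reads out young leading strands that resist an exonuclease, had been carried out on CH12 cells, a mouse B lymphoma line cultured with IL4, CD40 and TGF beta stimulation. WT cells and Rif1KO cells, which lack the replication timing factor RIF1, make up the first contrast. In the second, all cells were Rif1KO and had been infected with a lentivirus carrying a hairpin against Mcm6, a subunit of the MCM helicase (Rif1KO_shMcm6), or against LacZ as control (Rif1KO_shLacZ). Each of the 4 groups had 2 libraries, but the deposited tables hold 1 pooled value per group, so no replicate error, no test and no p-value can be given. RIF1-deficient CH12 lines are clonal derivatives, and which clone was used here is not given in the sources used here. These are DNA reads, so the labelled cell type could not be checked against expressed markers. Reads inside ISs numbered 3350255 in WT and 3724571 in Rif1KO, and 21071351 in Rif1KO_shLacZ and 23602750 in Rif1KO_shMcm6. Medians were 73, 82, 141 and 160 reads per IS. Since each table has its own scaling, no density is set against one of the other table.

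Olfactory receptors are G protein-coupled receptors of the sensory neurons of the nose, each neuron expressing a single receptor gene, and Vmn1r and Vmn2r genes encode the pheromone receptors of the vomeronasal organ. The coding region of most Olfr and Vmn1r genes is a single exon, whereas Vmn2r genes are long and split into several exons. Outside the nose the clusters are silent, AT-rich and held in heterochromatin, and such regions typically replicate late. The clusters grew by repeated local duplication, so neighbouring genes and the sequence between them are often near-copies.

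Windows of 4 ISs are printed to show the range of sequence that the named values come from. Each gives the 300 bases at the middle of the IS on the plus strand of mm9, and capitals mark matches to a G-run pattern described with the sequence content. Among ISs with at least 100 reads over both conditions, the first is the IS with the highest Rif1KO over WT fold change, the second an IS with one of the lowest, and the third the densest IS in WT. The last is the IS with the lowest shMcm6 over shLacZ fold change. All 4 are intergenic.
Olfr61 IS (chr7:147821944-147822243): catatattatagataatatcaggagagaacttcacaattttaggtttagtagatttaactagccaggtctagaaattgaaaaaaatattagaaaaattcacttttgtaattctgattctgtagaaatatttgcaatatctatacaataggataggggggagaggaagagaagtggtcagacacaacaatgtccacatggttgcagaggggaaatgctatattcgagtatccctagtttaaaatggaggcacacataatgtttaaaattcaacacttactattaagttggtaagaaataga
Vmn1r-ps2 IS (chr4:3010539-3010838): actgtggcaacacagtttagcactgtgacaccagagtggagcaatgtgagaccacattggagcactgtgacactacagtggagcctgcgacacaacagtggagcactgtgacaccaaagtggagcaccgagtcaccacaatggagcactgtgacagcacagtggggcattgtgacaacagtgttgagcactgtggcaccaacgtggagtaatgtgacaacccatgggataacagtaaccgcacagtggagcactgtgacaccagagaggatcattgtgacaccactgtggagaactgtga
Vmn1r2 IS (chr4:3091226-3091525): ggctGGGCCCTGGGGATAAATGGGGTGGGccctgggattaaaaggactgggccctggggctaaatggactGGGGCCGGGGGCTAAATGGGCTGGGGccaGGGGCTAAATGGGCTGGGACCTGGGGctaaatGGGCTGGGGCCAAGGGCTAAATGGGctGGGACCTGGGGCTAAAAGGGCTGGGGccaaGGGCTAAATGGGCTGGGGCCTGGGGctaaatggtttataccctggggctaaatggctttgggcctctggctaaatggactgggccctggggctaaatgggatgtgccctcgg
Vmn1r54 IS (chr6:90209026-90209325): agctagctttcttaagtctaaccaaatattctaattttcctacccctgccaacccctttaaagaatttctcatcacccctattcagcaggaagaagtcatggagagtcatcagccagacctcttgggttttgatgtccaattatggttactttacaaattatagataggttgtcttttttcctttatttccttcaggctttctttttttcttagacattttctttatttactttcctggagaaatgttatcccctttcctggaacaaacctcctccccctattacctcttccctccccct
The Olfr61 window is 32% G or C, and the Vmn1r2 window, built of short near-repeats rich in G runs, is 62.7%. The Vmn1r54 window is 39% G or C and, like the Olfr61 and Vmn1r-ps2 windows, holds no match to the pattern.

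Fewer ISs were mapped near receptor genes than elsewhere, and the shortfall was larger in the shallower table. The annotation holds 1243 Olfr, 256 Vmn1r and 179 Vmn2r genes on the autosomes, in 80 clusters when genes are chained at gaps of up to 500 kb. On the 17 autosomes, the genes with 50 kb on each side cover 54 Mb. In the Rif1KO and WT table this sequence held 9.87 ISs per Mb (exact Poisson 95% interval 9.05 to 10.7) against 15.8 per Mb in the rest, a ratio of 0.623. In the shMcm6 and shLacZ table it held 45.7 per Mb (43.9 to 47.5) against 53.6, a ratio of 0.853. By condition list, the ratio to the rest was 0.538 in WT, 0.649 in Rif1KO, 0.832 in Rif1KO_shLacZ and 0.855 in Rif1KO_shMcm6. These lists differ in depth as well as in genotype, and the part of depth in this order was not tested. Intervals here and below cover counting error only, treat ISs as independent and leave out PCR copies.

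The alignment kept reads that matched mm9 once, and receptor clusters hold many repeated stretches. Of 50-base windows, the length of the reads, 72.9% occurred exactly once in mm9 within 50 kb of receptor genes and 89.6% elsewhere on the 17 autosomes. Clusters made up mostly of Olfr genes had 82.7% unique windows, Vmn2r clusters 64.6% and Vmn1r clusters 56.1%. Per Mb of uniquely alignable sequence, the shMcm6 and shLacZ table held 62.7 ISs near receptors and 59.8 elsewhere, a ratio of 1.05. In the Rif1KO and WT table the values were 13.6 and 17.7, a ratio of 0.767. Olfr clusters held 12.3 ISs per Mb (11.1 to 13.7), Vmn1r clusters 7.83 (6.25 to 9.68) and Vmn2r clusters 6.05 (4.80 to 7.52) in the Rif1KO and WT table, and 52.5, 36.7 and 37.9 in the other. Vmn1r and Vmn2r clusters did not differ beyond their intervals in either table. Per unique Mb the first table gave 14.93 for Olfr, 13.95 for Vmn1r and 9.36 for Vmn2r clusters. The Vmn2r value thus stayed below those of Olfr and Vmn1r clusters in that table. Per unique Mb the second table gave 63.4 for Olfr, 65.5 for Vmn1r and 58.7 for Vmn2r clusters. The part of repeated sequence in the family differences was not tested.

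**Figure D1:**
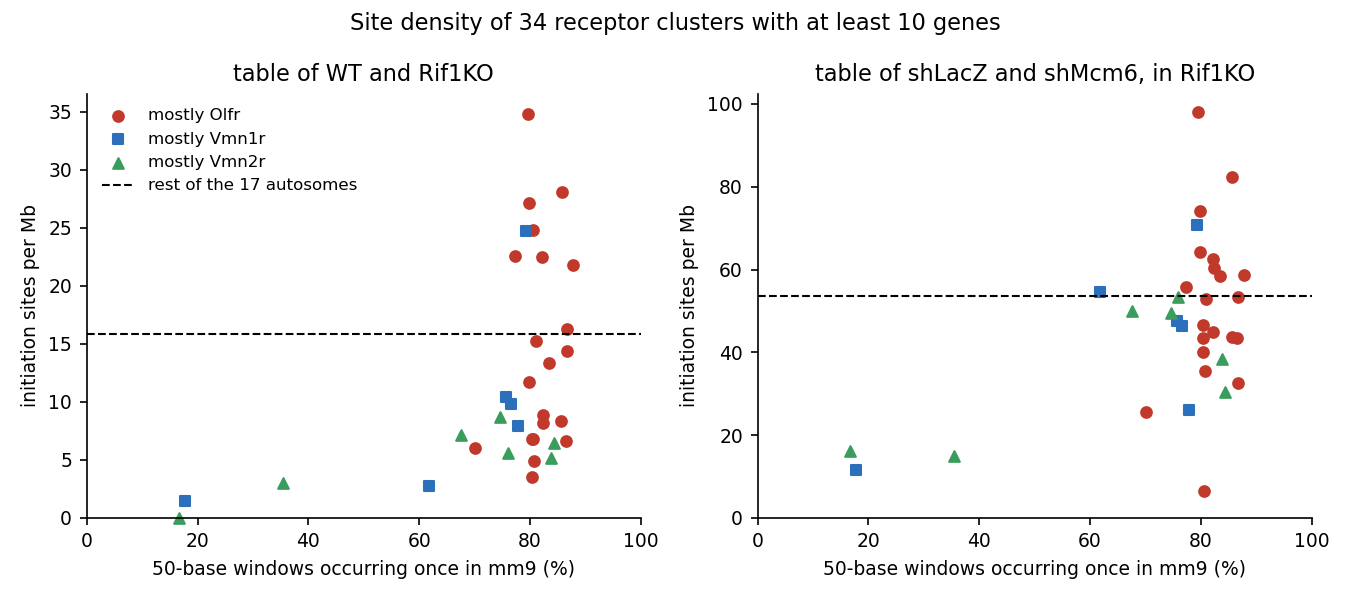
ISs per Mb (vertical axis) against the percentage of 50-base windows that occur once in mm9 (horizontal axis) for the 34 receptor clusters with at least 10 genes, chromosomes 10 and 16 included, with the table of WT and Rif1KO on the left and that of shLacZ and shMcm6 on the right. The dashed lines mark the rest of the 17 autosomes, 15.8 and 53.6 ISs per Mb, and the clusters with the fewest unique windows have few ISs in both panels.

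The receptor genes themselves held few ISs. Of 1678 receptor genes, 674 (40.2%) had an IS within 50 kb in the Rif1KO and WT table, but 24 (1.43%) had one overlapping the gene body and 7 (0.417%) had an IS midpoint within 1 kb of the gene start. In the deeper table an IS lay within 50 kb of 1431 genes (85.3%), in the gene body of 99 (5.90%) and at the gene start of 62 (3.69%). Vmn2r genes, with a median length of 18104 bp against 927 bp for Vmn1r genes and 960 bp over all 3 families, were hit most often, with 46 of 179 gene bodies (25.7%) overlapped in the deeper table against 44 of 1243 for Olfr (3.54%) and 9 of 256 for Vmn1r (3.52%).

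Density of ISs was compared over distance bands to take gene length into account. Receptor gene bodies held 3.38 ISs per Mb (2.07 to 5.22) in the Rif1KO and WT table, the next 10 kb held 9.43 (8.26 to 10.7), the band from 10 to 25 kb held 10.9 (9.26 to 12.8) and that from 25 to 50 kb held 13.7 (11.4 to 16.3). Gene bodies thus lay below each of the flanking bands, and neighbouring bands outside the genes overlapped in their intervals in this table. In the shMcm6 and shLacZ table the 4 bands held 24.3 (20.5 to 28.7), 45.5, 52.4 and 50 ISs per Mb. Unique windows made up 69.2% of the gene bodies, 78.4% of the first band, 66.9% of the second and 69.4% of the third. Gene bodies also had the fewest ISs per unique Mb, 4.89 against 12 to 19.7 in the first table and 35.2 against 58 to 78.3 in the second.

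ISs near receptor genes were of lower GC content than other ISs and mostly intergenic. Their median GC content was 42.2% (41.4 to 43.1) in the Rif1KO and WT table against 47.2% in the rest of the 17 autosomes, 40.4% in gene deserts and 41.8% in GC-poor intergenic ISs. Gene deserts are here ISs with no protein-coding gene other than receptors within 500 kb. GC-poor intergenic ISs lie outside genes, have a gene within that distance, and fall below the median GC of the table. In the shMcm6 and shLacZ table the values were 40.4% (40.1 to 40.8), 44.7%, 38.8% and 39.8%. All receptor territory, with or without ISs, is 39.3% G or C, so ISs there were richer in GC than the sequence around them, as were ISs in the rest of the 17 autosomes, whose sequence is 42.1% G or C. Intergenic position was found for 83.3% and 86.5% of ISs near receptors against 58.5% and 63.2% of the rest.

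The G-run pattern, often used to find sequences able to fold into G-quadruplexes, differed little in its share near receptors and elsewhere. It consists of 4 runs of at least 3 G, spaced by 1 to 7 bases of any kind, on either strand. It was found in 77.3% (73.6 to 80.7) of ISs near receptors in the Rif1KO and WT table and in 77.7% of the rest, and in 77.6% and 77.2% in the other table. Of 500-base tiles laid over the same sequence, 7.31% near receptors and 8.41% elsewhere held it. The median width was 429 bp near receptors and 448 bp elsewhere in the first table, and 575 and 602 bp in the second. The nearest other IS lay at a median of 10.6 kb near receptors and 11.2 kb elsewhere, and at 4.67 and 4.46 kb in the second table.

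Read density at ISs near receptors was slightly below that of other ISs. The median in WT was 4.30 log2 RPM (4.23 to 4.36) near receptors against 4.47 in the rest, 4.23 in gene deserts and 4.32 in GC-poor intergenic ISs. In Rif1KO_shLacZ cells it was 2.65 (2.61 to 2.68) against 2.76, 2.59 and 2.69. ISs between the first and last gene of a cluster had a median of 4.23 in WT (4.16 to 4.28), and those in the flanks had 4.56 (4.45 to 4.68), so the values inside and outside the spans did not overlap in their intervals. GC content was 41.2% inside and 45.5% in the flanks.

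After loss of RIF1, ISs near receptors gave a median log2 fold change of 0.05 (0.03 to 0.08), where positive values mean a higher density in Rif1KO than in WT. The median was 0.02 in the rest of the 17 autosomes, 0.12 (0.11 to 0.14) in gene deserts and 0.09 (0.09 to 0.10) in GC-poor intergenic ISs. Receptor ISs thus lay between the rest and the gene deserts, with no overlap of intervals with the deserts. All these groups include ISs called in Rif1KO only, which entered through the condition where they are high. Their part in this order was not tested. Past 1.5-fold, 6 of 533 (1.13%) were higher in Rif1KO and 3 (0.563%) were lower, against a background of 2.27% higher and 2.69% lower over all autosomal ISs. Without chromosomes 10 and 16, the background was 1.63% and 1.31%. Fold changes ranged from -0.84 to 0.85 with an SD of 0.23, and the median counting SE of a single IS was 0.24, so the spread among these ISs was no wider than counting error.

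Inside the spans the median fold change was 0.08 (0.05 to 0.12), and 6 of 401 ISs were past 1.5-fold higher and 0 lower, against 0.01 (-0.04 to 0.04), 0 and 3 of 132 in the flanks, where the background of the 17 autosomes is 1.63% and 1.31%. ISs called in Rif1KO only, which entered the table through the condition where they are high, made up 196 of the 401 and 31 of the 132, and the part of this in the difference was not tested. The 24 ISs that overlapped a receptor gene had a median of 0.21 (0.10 to 0.30), with 12 of the 24 called in Rif1KO only and 2 in WT only, and 0 were past 1.5-fold in either direction. Of the ISs near receptors, 253 were called in both cell types and had a median of 0.01 (-0.02 to 0.03). A further 227 were called in Rif1KO only and 53 in WT only. These are 47.5%, 42.6% and 9.94% of the ISs near receptors, against 53.1%, 33.6% and 13.3% in the rest of the 17 autosomes.

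**Figure D2:**
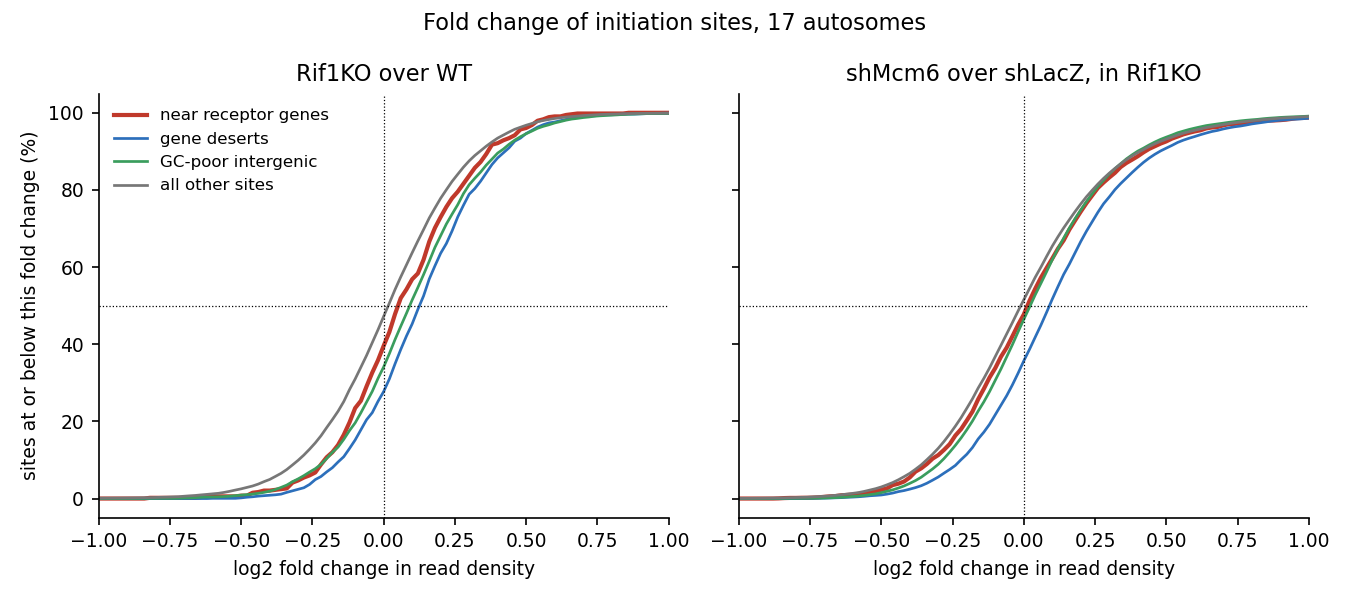
Percentage of ISs (vertical axis) at or below a given log2 fold change in read density (horizontal axis) on the 17 autosomes, for Rif1KO over WT (left) and shMcm6 over shLacZ in Rif1KO cells (right). The red line of ISs near receptor genes crosses 50% at 0.05 and 0.01, to the left of gene deserts, which cross at 0.12 and 0.09.

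With MCM6 depleted in Rif1KO cells, the median log2 fold change of shMcm6 over shLacZ was 0.01 (0.00 to 0.02) near receptors, -0.01 in the rest, 0.09 (0.08 to 0.10) in gene deserts and 0.02 (0.02 to 0.03) in GC-poor intergenic ISs. The sign near receptors was the other way, -0.02 (-0.03 to -0.00), in the 1597 ISs called in both conditions, and without the Olfr987 to Olfr1274-ps cluster the median was 0.00419 (-0.01 to 0.01). Of 2467 ISs, 125 (5.07%, 4.27 to 6.0) were past 1.5-fold higher and 27 (1.09%, 0.753 to 1.59) lower, against a background of 4.82% and 1.49% over all autosomal ISs. Both shares lay within counting error of the background. Fold changes ranged from -0.86 to 1.51 with an SD of 0.32, wider than the median counting SE of 0.17. By nearest gene the medians were 0.02 (0.00 to 0.04) for Olfr, -0.02 (-0.05 to 0.01) for Vmn1r and 0.02 (0.00 to 0.07) for Vmn2r ISs. In the Rif1KO and WT contrast the families gave 0.05, 0.03 and 0.09, with overlapping intervals.

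Fold change varied with the GC content of the IS in both contrasts, near receptors as elsewhere. In Rif1KO over WT, ISs near receptors with up to 36% GC had a median of 0.14 (0.07 to 0.23, n = 82) and other ISs of that class 0.16. With over 50% GC the medians were -0.07 (-0.11 to -0.02, n = 92) and -0.07. In shMcm6 over shLacZ the medians up to 36% GC were 0.11 (0.08 to 0.15, n = 508) near receptors, 0.10 in the rest and 0.14 in gene deserts. Above 50% GC they were -0.01 (-0.05 to 0.04, n = 217), -0.08 and 0.12. The median of the rest lay inside the receptor interval in all 5 GC classes of the Rif1KO contrast and in 3 of the 5 of the MCM6 contrast. The exceptions were the class from 44 to 50%, with -0.07 (-0.10 to -0.05) near receptors and -0.03 elsewhere, and the class over 50%.

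Grouped by the number of other protein-coding genes within 500 kb, ISs near receptors departed from the rest in some classes. In Rif1KO over WT the median with 6 to 10 such genes was 0.14 (0.08 to 0.17, n = 142) near receptors and 0.02 in the rest, and with 11 or more it was 0.02 (-0.01 to 0.04, n = 226) and -0.06. With 1 to 5 genes the order was the other way, 0.04 (-0.02 to 0.09, n = 141) and 0.09, and with 0 genes the medians were 0.14 (0.00 to 0.37, n = 24) and 0.12. In shMcm6 over shLacZ the medians near receptors were 0.12, 0.05, 0.00 and -0.03 from the class with 0 genes to that with 11 or more, against 0.09, 0.04, -0.04 and -0.08 in the rest. The classes were not matched for GC content or for the condition in which an IS was called. ISs called in Rif1KO only, which entered through the condition where they are high, were a larger share near receptors than in the rest. The part of this in the departures was not tested.

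**Figure D3:**
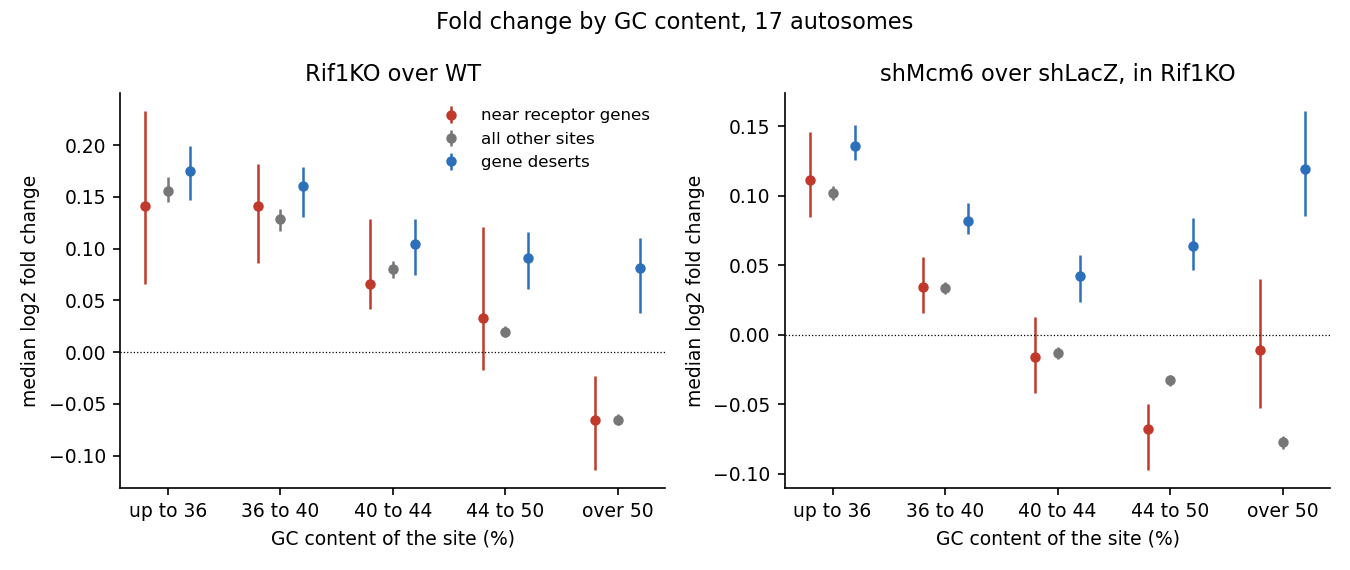
Median log2 fold change (vertical axis) of ISs in 5 classes of GC content (horizontal axis), with 95% order-statistic intervals, for Rif1KO over WT (left) and shMcm6 over shLacZ (right) on the 17 autosomes. Medians near receptor genes fall from 0.14 in the class of lowest GC to -0.07 in the highest on the left, and lie below those of gene deserts in every class of both panels.

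Single clusters differed in how many ISs they held and in how these responded. The Olfr987 to Olfr1274-ps cluster on chromosome 2, with 268 genes the one with the most ISs in the deeper table, held 15 ISs in the WT list, 35 in Rif1KO, 156 in Rif1KO_shLacZ and 208 in Rif1KO_shMcm6. Its median fold change was 0.09 (-0.01 to 0.25) in Rif1KO and 0.14 (0.09 to 0.19) in shMcm6, with 13 of 223 ISs past 1.5-fold higher and 1 lower, against 4.82% and 1.49% over all autosomal ISs. The Olfr543 to Olfr692 cluster on chromosome 7, which holds class I receptors and surrounds the beta-globin genes, had 12, 17, 129 and 138 ISs in the 4 lists. Its medians were 0.11 (-0.11 to 0.15) and -0.04 (-0.08 to -0.01), with 4 of 163 past 1.5-fold higher and 0 lower in shMcm6. The MCM6 intervals of these 2 clusters did not overlap. ISs called in Rif1KO only or in shMcm6 only entered through the condition where they are high, and their part in these medians was not tested. Over all ISs near receptors, those called in both shLacZ and shMcm6 had a median of -0.02 (-0.03 to -0.00). Within 10 kb of the beta-globin genes, silent in B cells and singled out after values were seen, 2 ISs were mapped in the first table and 11 in the second, with fold changes of 0.03 and 0.02 and from -0.37 to 0.64.

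The Olfr722 to Vmn2r89 cluster on chromosome 14 had the most ISs of the first table, 43 in 1.24 Mb or 34.8 per Mb, and 98 per Mb in the second. Its medians were 0.03 (-0.09 to 0.18) and 0.06 (-0.05 to 0.13), and 12 of 121 ISs were past 1.5-fold higher in shMcm6 and 2 lower, where the background is 4.82% and 1.49%. The Vmn2r57 to Vmn2r63 cluster on chromosome 7 gave the highest median in Rif1KO among large clusters with at least 10 ISs, 0.28 (0.10 to 0.36), and also 0.10 (0.04 to 0.21) in shMcm6. The Vmn1r4 to Vmn1r31 cluster on chromosome 6 had 0.04 (0.01 to 0.20) in Rif1KO and -0.06 (-0.14 to 0.00) in shMcm6, and held 24.7 ISs per Mb. Of the other clusters with many ISs, Olfr151 to Olfr986 on chromosome 9 had medians of 0.15 and 0.01, Vmn2r90 to Vmn1r237 on chromosome 17 had 0.12 and 0.02, and Olfr1417 to Olfr1505 on chromosome 19 had 0.16 and -0.03. Olfr90 to Olfr136, next to the major histocompatibility complex on chromosome 17, had -0.00 (-0.06 to 0.23) in Rif1KO and 0.09 (0.04 to 0.19) in shMcm6.

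Counted over large clusters with at least 10 ISs on the 17 autosomes, 13 of 17 had a median above 0 in Rif1KO, and 2 intervals lay wholly above 0 and 0 wholly below. These 2 were Vmn1r4 to Vmn1r31 and Vmn2r57 to Vmn2r63, whose lists held 11 and 7 ISs in WT and 27 and 11 in Rif1KO. ISs called in Rif1KO only entered through the condition where they are high, and their part in these medians was not tested. Over all ISs near receptors, those called in both cell types had a median of 0.01 (-0.02 to 0.03). The median of the rest of the 17 autosomes was also above 0. In shMcm6, 18 of 31 clusters had a median above 0, with 4 intervals above 0 and 3 below. The lowest median was that of the Olfr56 to Olfr1380 cluster on chromosome 11, -0.17 (-0.27 to -0.10). Of the 34 large clusters, only Vmn2r29 to Vmn2r-ps49 on chromosome 7 held 0 ISs in the first table, and it held 14 in the second. Only 16.7% of its 50-base windows were unique. The Vmn1r91 to Vmn1r183 cluster on the same chromosome, with 79 genes and 17.8% unique windows, held 5 and 41 ISs.

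**Figure D4:**
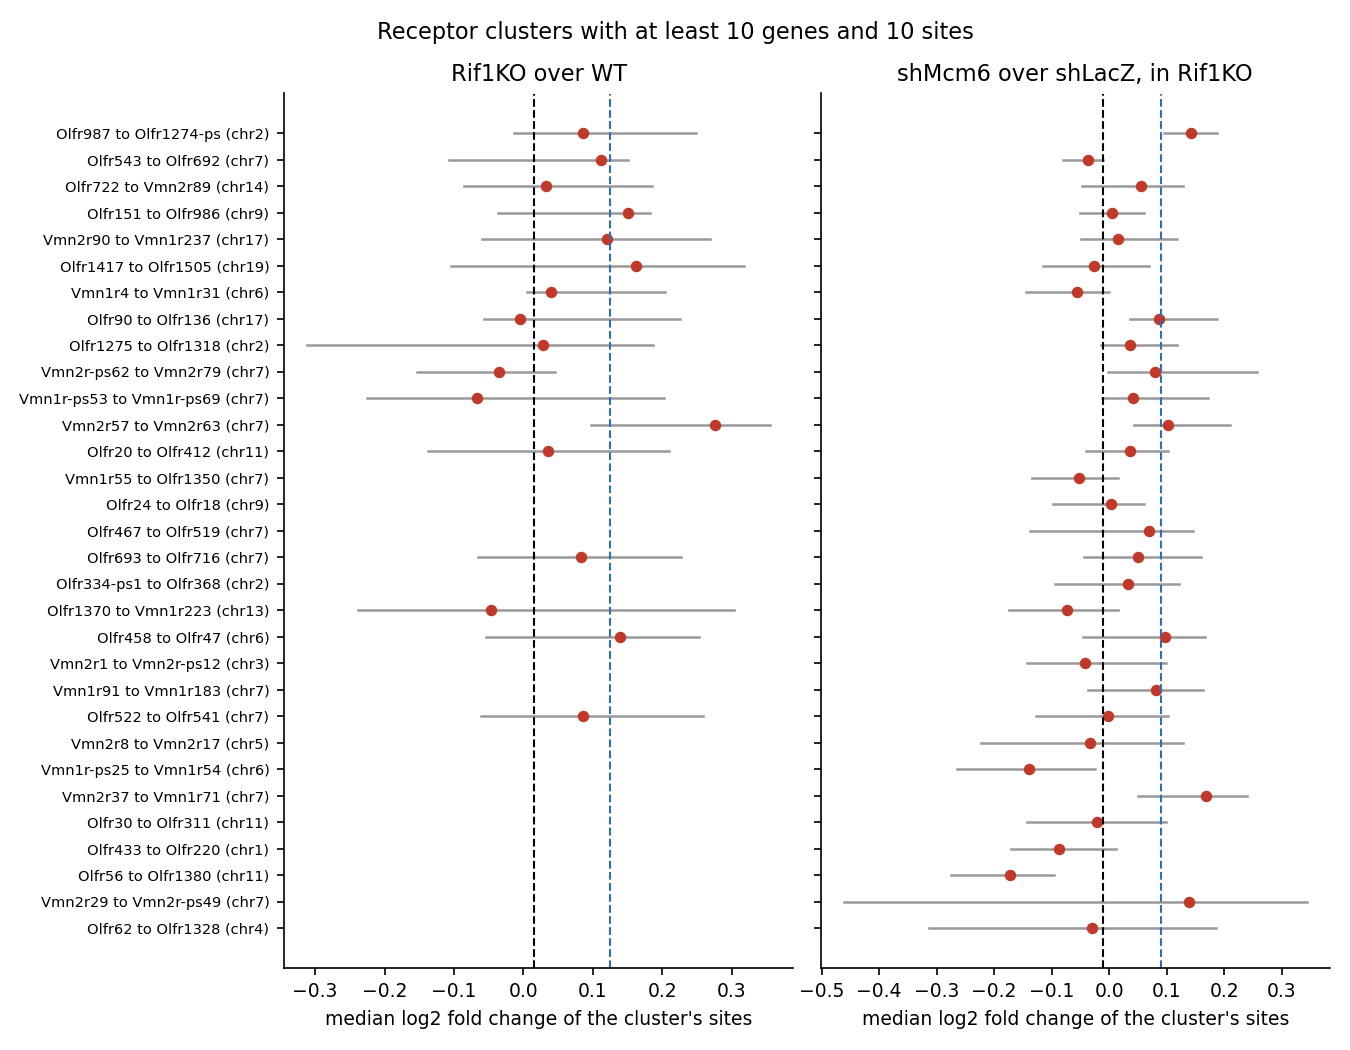
Median log2 fold change of the ISs of each receptor cluster with at least 10 genes (rows, named by first and last gene and ordered by the number of ISs in the deeper table), for Rif1KO over WT (left) and shMcm6 over shLacZ (right), shown where a cluster held at least 10 ISs. Bars are 95% order-statistic intervals, the black dashed line is the rest of the 17 autosomes and the blue dashed line gene deserts, and most bars cross the black line.

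Of ISs with at least 100 reads over both conditions, those with the highest fold change in Rif1KO were weakly used in WT and called in Rif1KO only. An IS at chr7:147821836-147822352, 1412 bp from Olfr61, had 3.34 log2 RPM in WT (34 reads) and 4.19 in Rif1KO (68 reads), a log2 fold change of 0.85 with a counting SE of 0.30. In the MCM6 contrast the same IS had 0.10 (SE 0.16). An IS 6531 bp from Vmn1r17 on chromosome 6 had 40 reads in WT and 71 in Rif1KO (0.68, SE 0.29), and one 15575 bp from Olfr749 on chromosome 14 had 37 and 64 (0.64, SE 0.30). In the MCM6 contrast these had -0.21 (SE 0.11) and -0.08 (SE 0.14).

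Among ISs with the same minimum of reads, those with the lowest fold change lay at promoters of other genes in the flanks or at the edge of the sequenced part of chromosome 4. The IS at chr4:118292877-118293501 covers the start of Wdr65 and Ebna1bp2, the latter a nucleolar protein of ribosome assembly, 44935 bp from Olfr62. It had 5.24 log2 RPM in WT (127 reads) and 4.59 in Rif1KO (90 reads), a change of -0.65 (SE 0.20), against 0.17 (SE 0.12) in the MCM6 contrast. The IS at chr4:3010402-3010976 near Vmn1r-ps2 had 140 reads in WT and 101 in Rif1KO (-0.62, SE 0.19) and the promoter IS of Tmem8b, 25260 bp from Olfr70, had 116 and 91 (-0.50, SE 0.20). Neither overlapped an IS of the other table.

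The ISs near receptors with the highest read density in WT differed by less than their counting SE in Rif1KO. At chr4:3090515-3092236, 7802 bp from Vmn1r2, WT had 7.12 log2 RPM (465 reads) and Rif1KO 7.05 (495 reads), and the overlapping IS of the other table had 5.56 and 5.45 in shLacZ and shMcm6. An IS 3886 bp from Vmn1r238 had 6.77 in WT and 6.74 in Rif1KO, and in shMcm6 over shLacZ a fold change of -0.25 (SE 0.10). One at chr7:13364895-13366277, 47132 bp from Vmn2r56 and 4579 bp from the start of Zscan18, had 6.60 and 6.51, with 596 reads in shLacZ and 524 in shMcm6 (-0.35, SE 0.09). In the second table the promoter IS of Gabbr1, a GABA-B receptor subunit, 38311 bp from Olfr90, had 5.21 in shLacZ and 5.08 in shMcm6, and another IS near Vmn1r238 had 5.07 and 5.18.

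In shMcm6, under the same minimum of reads, 2 ISs among those with the highest fold changes had few shLacZ reads and were called in shMcm6 only. The IS at chr7:115321779-115322142, 5704 bp from Olfr486, had 28 reads in shLacZ and 89 in shMcm6, and that at chr7:112425786-112426116, 1006 bp from Olfr687, had 28 and 86 (1.46, SE 0.31). Of the 50-base windows in these ISs, 37.5% and 80% were unique. The lowest were an IS 9925 bp from Vmn1r54 (120 and 74 reads, -0.86, SE 0.21), the promoter IS of Hfm1, a meiotic DNA helicase (221 and 137 reads, -0.85, SE 0.16), and an IS 11438 bp from Olfr1459 (88 and 55 reads, -0.84, SE 0.25). The Hfm1 IS lay 19200 bp from Olfr719-ps and was called in shMcm6 but not in shLacZ, although its density was lower in shMcm6.

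A group of 3 neighbouring ISs at the pseudogene Olfr1235-ps1 on chromosome 2 was better covered, and was singled out after its values were seen. They had 556, 303 and 66 reads in shLacZ and 1201, 820 and 193 in shMcm6, with log2 fold changes of 0.95 (SE 0.07), 1.27 (SE 0.10) and 1.38 (SE 0.21). No IS of the Rif1KO and WT table lay there. At least 97.2% of the windows in each were unique.

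ISs within receptor genes that were called in all 4 conditions numbered 11. The densest lay in an intron of Vmn2r90 on chromosome 17, with 5.05 log2 RPM in WT and 5.14 in Rif1KO (0.09, SE 0.19), and 3.75 in shLacZ and 3.58 in shMcm6 (-0.17, SE 0.12). Vmn2r61 on chromosome 7 held 2 such ISs. The first had 107 reads in WT and 144 in Rif1KO (0.28, SE 0.18) and a fold change of -0.18 (SE 0.12) in shMcm6, and the second gave 0.10 (SE 0.22) and 0.64 (SE 0.13). The IS in Olfr70 had 0.03 (SE 0.20) and -0.36 (SE 0.12), that in Olfr140 0.36 (SE 0.22) and -0.20 (SE 0.18), that in Vmn2r-ps62 0.30 (SE 0.24) and -0.35 (SE 0.16), that in Olfr639 -0.32 (SE 0.26) and -0.38 (SE 0.17), and that in Olfr869 0.20 (SE 0.26) and 0.01 (SE 0.16). The remaining 3, in Vmn2r83 and Olfr1353, lie on chromosome 10 and had -0.39, -0.53 and -0.32 in Rif1KO.

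Other genes embedded in or next to the clusters contributed 17 promoter ISs present in both tables. The densest in WT lay at the zinc finger gene Zfp219 on chromosome 14, with 6.41 log2 RPM in WT and 6.19 in Rif1KO (-0.22, SE 0.12) and -0.29 (SE 0.10) in shMcm6. Of 2 ISs at Gabbr1 on chromosome 17, the denser had 6.19 and 6.15 (-0.04, SE 0.13). Nipsnap3b on chromosome 4 had 6.06 and 5.86 (-0.21, SE 0.14) and in shMcm6 -0.48 (SE 0.11), and Sall2, a zinc finger transcription factor gene on chromosome 14, 0.08 (SE 0.15) and -0.22 (SE 0.08). Arhgef40 had -0.45 (SE 0.22) and 0.23 (SE 0.12), and Reck, an inhibitor of metalloproteinases, -0.43 (SE 0.23) and 0.02 (SE 0.14). Zfp788 had 0.35 (SE 0.20) and -0.07 (SE 0.13), Gm6900 0.44 (SE 0.23) and 0.06 (SE 0.11), and Rnf212, which acts in meiotic crossing over, 0.34 (SE 0.25) and -0.20 (SE 0.11). Over all ISs inside or within 1 kb of such genes, 81 and 217, the median fold change was 0.00 (-0.07 to 0.03) in Rif1KO and -0.01 (-0.05 to 0.04) in shMcm6. Away from them it was 0.06 (0.04 to 0.10) and 0.01 (0.00 to 0.02). In the Rif1KO and WT table, 27.2% of the ISs at such genes and 45.4% of those away from them were called in Rif1KO only.

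The 2 contrasts were set side by side at ISs shared between the tables. Of 533 ISs near receptors in the first table, 455 (85.4%, 82.1 to 88.1) overlapped an IS of the second, against 84.4% in the rest. In the other direction 18.1% (16.6 to 19.6) of 2467 were found in the first table against 24.6%. At 437 ISs matched one to one, 113 were higher in both contrasts, 150 higher in Rif1KO and lower in shMcm6, 71 the reverse and 103 lower in both. In the rest these counts were 5546, 9000, 3984 and 8839. Across the matched ISs, whose values within a contrast come from the same pooled libraries, Spearman's rank correlation of the fold changes was 0.06 near receptors and 0.12 in the rest. That of the control densities was 0.54 and 0.59.

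Chromosomes 10 and 16, set apart by the rule with earlier results of these data known, differed from the other autosomes in the Rif1KO contrast. So did their receptor ISs. On chromosome 10, 59 ISs near receptors had a median of 4.63 log2 RPM in WT and 4.17 in Rif1KO, a log2 fold change of -0.50 (-0.59 to -0.39). The other 2640 ISs of the chromosome had -0.36 (-0.37 to -0.35), with an upper quartile of -0.13. Past 1.5-fold, 22 of 59 (37.3%, 26.1 to 50) were lower and 0 higher, against 22.2% lower and 0.556% higher over chromosome 10. The lists held 58 receptor ISs of this chromosome in WT and 30 in Rif1KO, against 2303 and 1774 over the chromosome. ISs called in WT only entered through the condition where they are high, and their part in this difference was not tested. On chromosome 16, 34 receptor ISs had 4.08 in WT and 4.35 in Rif1KO, a median of 0.30 (0.13 to 0.41) against 0.33 in the other 2140, and 2 of 34 were past 1.5-fold higher and 0 lower, against 14.4% higher and 0.138% lower over the chromosome. The WT list held 4 receptor ISs of chromosome 16 and the Rif1KO list 34, against 778 and 2113 over the chromosome. Most thus entered through Rif1KO, where they are high, and the part of this in the median was not tested. A change in the DNA content of these chromosomes between cell lines would shift read density without any change in initiation, and with no input library these cannot be told apart.

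In shMcm6 over shLacZ neither chromosome showed such a shift. The 62 ISs on chromosome 10 had a median of 0.05 (-0.12 to 0.16) against -0.03 in its other ISs, with 4 past 1.5-fold higher and 0 lower, against 4.34% and 1.86% over the chromosome. The 71 on chromosome 16 had -0.02 (-0.08 to 0.03) against 0.01, with 2 higher and 0 lower, against 5.37% and 1.11% over the chromosome.

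Both large chromosome 10 clusters held fewer ISs in the Rif1KO list than in WT, and in the lists of the hairpin groups they parted. Olfr9 to Vmn2r87, with 62 genes, held 38 ISs in the WT list, 17 in Rif1KO, 2 in Rif1KO_shLacZ and 10 in Rif1KO_shMcm6. Olfr1358 to Vmn2r83, with 14 genes, held 20, 13, 44 and 46. In the 10 Mb before the distal cluster the lists held 272, 175, 188 and 206 ISs, while the lists as a whole held 25828, 33600, 100612 and 115766. On chromosome 16 the Olfr172 to Olfr209 cluster, with 27 genes, held 1 IS in WT, 19 in Rif1KO, 35 in Rif1KO_shLacZ and 39 in Rif1KO_shMcm6. ISs of chromosome 16 away from all receptor genes numbered 774, 2079, 3734 and 4409. Receptor ISs on the 17 autosomes numbered 306, 481, 1872 and 2209.

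**Figure D5:**
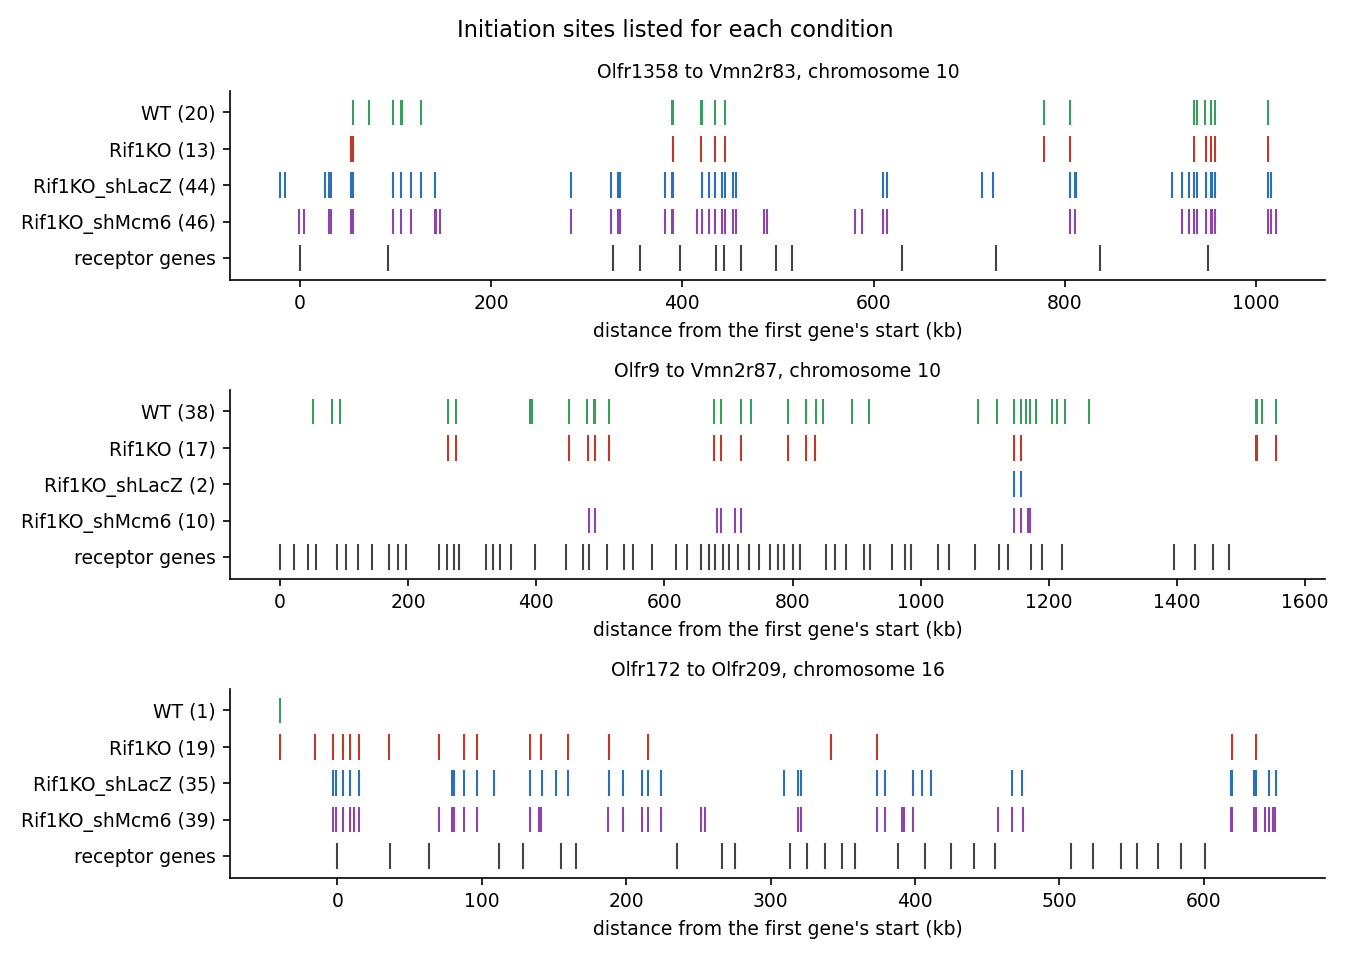
Positions of listed ISs (coloured ticks) and of receptor gene starts (grey ticks) in the 3 large receptor clusters of chromosomes 10 and 16, as distance in kb from the start of the first gene, 1 row per condition with the number of ISs in brackets. The Olfr9 to Vmn2r87 cluster goes from 38 ISs in WT to 2 in Rif1KO_shLacZ, and the chromosome 16 cluster from 1 to 35.

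The extremes on these chromosomes are given for ISs with at least 100 reads over both conditions. On chromosome 10 the lowest of these in Rif1KO lay near the start of Syde1, 20196 bp from Olfr1357, with 110 reads in WT and 56 in Rif1KO (-1.13, SE 0.24). The highest, 2222 bp from Vmn2r83, had 104 and 121 (0.07, SE 0.19). In shMcm6 the lowest lay 28707 bp from Olfr1357 (-0.53, SE 0.20) and the highest in an intron of Ppap2c, 40051 bp from Vmn2r83 (0.74, SE 0.13). On chromosome 16 the lowest and highest in Rif1KO lay near Olfr172 (-0.17, SE 0.21) and Olfr161 (0.67, SE 0.29), and in shMcm6 near Olfr165 (-0.57, SE 0.17) and Olfr171 (0.93, SE 0.24).

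ISs at genes of the olfactory pathway outside the clusters were examined from a list of 25 genes for signal transduction, receptor trafficking and receptor choice. Of these, 10 held an IS in the gene or within 1 kb of a start in the Rif1KO and WT table, 3 of them at the start, and of 23 such ISs 1 was past 1.5-fold higher and 1 lower, against 2.27% and 2.69% over all autosomal ISs. The higher one lay at Rtp2 on chromosome 16, which as a whole was higher in Rif1KO. Another 111 ISs lay in 19 of the genes in the shMcm6 and shLacZ table, in 9 of them at the start, with 4 ISs higher and 4 lower, against 4.82% and 1.49%. By gene, the median fold change was above 0 in 5 genes and below 0 in 5 in Rif1KO, and above in 7 and below in 12 in shMcm6. The densest ISs of Gnao1, a G protein subunit of the vomeronasal pathway, had -0.32 (SE 0.16) and -0.29 (SE 0.09) in the 2 contrasts, and those of Lhx2, a transcription factor for receptor expression, -0.13 (SE 0.16) and -0.17 (SE 0.13). Adcy3, the olfactory adenylyl cyclase, had ISs in the second table only, the densest with 0.18 (SE 0.10). The promoter IS of Ebf1, which also specifies B cells, had 3.47 log2 RPM in shLacZ and 2.83 in shMcm6 (-0.64, SE 0.15).

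ISs near other sensory or clustered gene families were counted in the same way. Within 50 kb of the 16 Taar genes, trace amine receptors on chromosome 10, lay 5 ISs in the first table and 21 in the second, with medians of -0.00 and -0.00 (-0.13 to 0.10). Of those 5, 0 were past 1.5-fold lower and 0 higher in Rif1KO, against 22.2% and 0.556% over chromosome 10, which as a whole was lower. The 35 Tas2r bitter taste receptor genes had 14 and 63 ISs, of which 4 and 10 also lay near receptors, and medians of 0.17 (0.03 to 0.37) and -0.05 (-0.13 to 0.04). The 17 Ms4a genes, a family that includes the B cell gene for CD20, had 22 and 56 with medians of -0.01 (-0.12 to 0.16) and -0.18 (-0.22 to -0.11). The 7 Fpr genes had 5 and 21, of which 3 and 14 also lay near receptors, with medians of -0.09 and 0.06 (-0.18 to 0.18). The 3 Tas1r sweet and umami taste receptor genes on chromosome 4 had 9 and 20 ISs, with medians of -0.29 (-0.47 to 0.05) and -0.15 (-0.26 to -0.02).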

How the data were processed

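SNS-seq libraries of CH12 cells (4 groups, 2 libraries each) were analysed from the merged IS tables and the IS list of each condition. Per the study's methods and the submitters' notes, 50-base reads were trimmed with Trim Galore 0.6.4 and cutadapt 2.6, aligned once to mm9 with Bowtie 1.2.3, and called with MACS without input. Consensus ISs were kept only inside clusters of ISs, which removes isolated ones. As deposited, densities are in log2 RPM: the authors divided reads by the total inside all ISs of a table and gave 1 pooled density per group. Deposited columns of another kind give the authors' fold change category and peak numbers and were not used.

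Reads behind each value were recovered, whole within 0.01 for 100% of ISs, and gave counting SEs. Genes, sequence and unique 50-base windows (every 200 bases near receptors, 2000 elsewhere, 25 inside ISs) came from GENCODE M1 and NCBIM37, which is mm9. Python 3.11.15, pandas 2.3.3 and scipy 1.17.1 were used. Intervals are exact Poisson for counts, Wilson for shares and order-statistic for medians, at 95%. Members and lists were chosen with earlier results of these data known. Named ISs followed a rule: per contrast the 3 highest and lowest fold changes with at least 100 reads over both conditions, the 3 densest in the control, and the extremes of chromosomes 10 and 16 under the same minimum of reads. Of these, 1 IS of the MCM6 contrast is not reported here. Receptor genes named hold an IS called in all 4 lists, other genes a promoter IS in both tables. Steps were tested on simulated data. Alternatives covered distance, gene set, calls, chromosomes, thresholds and centring. No replicate test was possible, so the count and array models planned for replicate values were not fitted.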

Additional observations from a re-analysis of the deposited data

How the results depend on the processing

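No paired analysis was possible because each condition has 1 pooled value, and for the same reason no alternative that leaves out a replicate or uses a replicate block was run. Of 112 alternative values, 70 lay within the interval of the value reported, 40 outside it and 2 had the other sign. In the Rif1KO and WT table, a distance of 10 kb gave 8.27 ISs per Mb, a WT density of 4.21, a median log2 fold change of 0.0862, 0% lower and 40.9% GC, and 100 kb gave 10.9 per Mb and 43.4% GC. Per uniquely alignable Mb the rate was 13.6. ISs called in both conditions had a WT density of 4.61, a log2 fold change of 0.00667, 0% higher and 43.9% GC, and those at or above the lower quartile of density had 4.54 and 0% higher. Over all autosomes 3.99% were lower. At 2-fold 0% were higher and 0% lower, and at a log2 threshold of 0.32 the shares were 14.3% and 4.13%. In the shMcm6 and shLacZ table, 10 kb gave 41.4 per Mb, a shLacZ density of 2.60, a log2 fold change of 0.0325 and 39.5% GC, and 100 kb gave 41.2% GC. The rate per uniquely alignable Mb was 62.7, and ISs away from other genes had 40.1% GC. ISs called in both conditions had a density of 2.83, a log2 fold change of -0.0186, 1.19% higher and 0.564% lower, and those above the lower quartile 2.88, 2.97% and 0.513%. With log2(RPM + 1) the shares were 3.20% and 0.324%, at 2-fold 1.26% and 0%, and at 0.32 they were 15.6% and 10.3%. The median log2 fold change was 0.0244 after centring on all autosomal ISs, -0.00103 as the median of cluster medians, and 0.0327 in ISs with over 95% unique windows. This last setting and the rates per uniquely alignable Mb, in both tables, were chosen after seeing the data. The sign of the MCM6 median thus depended on the ISs counted, and the cause was not tested. Members had a median of 66 reads in WT and 132 in Rif1KO_shLacZ, and a single IS had a median counting SE of 0.24 and 0.17, so most single fold changes were not detectable at this depth.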
